A study of Mus musculus with 18 samples.

Results

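The predicted snoRNAs with Gm names are small nucleolar RNAs that the mouse annotation lists only under a provisional gene-model name, the letters Gm and a number. Members were chosen by their counts: a transcript typed as snoRNA, with a Gm name, entered where at least 5 reads were counted in at least 6 of the 18 libraries. The rule kept 179 of the 1012 Gm-named snoRNA transcripts, of which 322 had any read, among 203513 listed transcripts and small RNAs of all kinds. Since the counts chose the members, their levels are given as a description and support nothing further.

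Small RNA sequencing was done on 3 cell fractions taken one after another from brains of mice aged 10 months, with 3 libraries in each of 6 groups. WT mice were compared with homozygous Atxn2-CAG100-KIN mice (KIN below), which carry an expanded CAG repeat knocked into the endogenous Atxn2 gene, so that every cell type carries the allele. Both genotypes were on the C57BL/6 background, and no treatment was given. Microglia were bound to CD11b beads and astrocytes to ACSA-2 beads, and neurons were what remained after the other cells had been removed, so that each fraction is enriched rather than pure.

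Library totals ran from 1211118 reads (Neurons WT replicate 1) to 4316748 reads, and Neurons WT replicate 1 also stood apart in its snoRNA profile, as described with the values below. The label of the microglia fraction was borne out by its marker miRNAs, whose summed level was 2835 to 3389 CPM (counts per 1000000 counts of the library) in WT microglia and 10.2 to 12.6 CPM in WT astrocytes. In the neuron fraction the neuronal marker miRNAs went against the label. The 4 neuronal marker miRNAs, led by miR-124-3p, summed to 52.8 to 241 CPM in the WT libraries labelled neurons and to 1380 to 3224 CPM in WT astrocytes, and all 4 were detected in every group. The study also checked the purity of its fractions with mRNA markers by RT-qPCR and RNA sequencing. From these it reported its microglia and neuron populations as largely pure, with a minor presence of other cells' markers in astrocytes. It also stained cultured cells of young pups for marker proteins. Those data are not analysed here. No library was reassigned, whether labels were exchanged was not tested, and "neurons" denotes the labelled fraction here. The astrocyte fraction also carried oligodendrocyte marker miRNAs, at 1770 to 3035 CPM in WT and 3351 to 5112 CPM in KIN.

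A snoRNA guides a protein complex to another RNA by base pairing. Box C/D snoRNAs, named for short C and D sequence boxes near their ends, bind Fbl, Nop56, Nop58 and Snu13 and direct methylation of ribose in ribosomal RNA, whereas box H/ACA snoRNAs end in the letters ACA followed by a short tail, bind Dkc1, Nhp2, Nop10 and Gar1, and direct pseudouridylation. In mammals most snoRNAs are not transcribed alone but are cut out of introns of host genes, many of which encode ribosomal proteins or belong to the Snhg family of snoRNA host lncRNAs. Some, such as those in the imprinted Snhg14 locus, have no known ribosomal RNA target and are known mainly from brain.

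Members with high levels are shown first, because they hold much of the class's reads, with the letters of the C box (TGATGA) and the D box (CTGA) in capitals. Sequences were read from the reference genome (GRCm39, mm39) at the coordinates of the GENCODE vM39 annotation and are written in the direction of the gene. They are Gm23344, in an intron of Rpl4 (chr9:64082330-64082397, plus strand), Gm24134, in Rpl7a (chr2:26802542-26802612, plus strand), Gm23130, in Rps12 (chr10:23662368-23662441, minus strand), Gm25091, in Rpl21 (chr5:146771644-146771714, plus strand) and Gm25506, in Tnpo2 (chr8:85776836-85776905, plus strand). The Rpl7a, Rps12, Rpl21 and Tnpo2 positions are intronic in some transcripts of the host and exonic in others.
Gm23344: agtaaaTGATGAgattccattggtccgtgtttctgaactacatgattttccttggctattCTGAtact
Gm24134: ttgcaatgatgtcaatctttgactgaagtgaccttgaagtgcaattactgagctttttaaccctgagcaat
Gm23130: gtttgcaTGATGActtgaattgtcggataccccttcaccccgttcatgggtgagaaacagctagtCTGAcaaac
Gm25091: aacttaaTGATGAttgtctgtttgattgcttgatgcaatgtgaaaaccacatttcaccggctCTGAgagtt
Gm25506: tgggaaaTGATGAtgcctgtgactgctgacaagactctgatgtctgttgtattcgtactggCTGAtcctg
Gm24134 is printed without capitals because it lacks the letters TGATGA and so was not counted as box C/D, although CTGA lies among its last 12 bases. The other high members, Gm26202 and Gm23301, both lie in introns of Rpl17.

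The exact box letters split the members into 3 groups. TGATGA anywhere together with CTGA among the last 12 bases was found in 54 members (30.2%), ACA followed by 3 bases at the 3′ end in 70 more, and neither in 55. The same letters for box C/D were present in 1.68% of the other 833 Gm-named snoRNA transcripts and in 60.5% of the 76 snoRNAs with a Snord name. ACA was found at its position in 41.3% of the members, 4 of them with the C and D letters too, in 14.3% of the other Gm-named transcripts and in 81.6% of the 38 with a Snora name. Absence of the exact letters says only that they are not in these windows.

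The groups also differed in length and level, measures that the letters did not use. The C and D group had a median length of 76 nt, a median GC content of 43.9% and a median level of 273 CPM, and held 57.2% of the members' summed CPM. The ACA group was longer (133 nt, GC 49.4%) and lower (91.8 CPM), with 12.7% of the sum, and the group with neither had 86 nt and 205 CPM. CPM counts reads per transcript of the library total and not per base, so these levels are not corrected for length.

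Almost all members lay inside a host gene. A host on the same strand was annotated for 164 members (91.6%), against 23.3% of the other Gm-named snoRNA transcripts, and it was protein-coding for 124 and a lncRNA for 40. The 112 hosts included 10 with at least 3 members, which together held 49: Snhg14 with 9, Snhg1 and Taf1d with 7 each, Gas5 with 6, Rpl4 and B830012L14Rik with 4 each, and Rpl7a, Nop56, Eif4a2 and Ubap2 with 3 each. Nop56, itself a core protein of box C/D particles, and Taf1d, a subunit of the RNA polymerase I selectivity factor, are linked to the same pathway as the RNAs in their introns. Ribosomal protein genes hosted 22 members.

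Names and copies limit how single members can be read. In the vM39 annotation 13 members carry another name, 4 of them a Snord or Snora name, and 26 were at least 90% identical to a named snoRNA. In all 34 members fell into 11 families whose copies were at least 95% identical over their length. The counting placed each multiply mapping read at 1 copy, so counts of such copies are uncertain one by one, and family sums are given beside them. A further limit applies to the 80 members that overlap an exon of another listed transcript. Reads of the shared sequence can come from either transcript, and counting did not use the strand.

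The members' reads made up 7.67% to 12.3% of each library. Summed over the 179 members, the share was 8.31% ± 0.267 (SD, n = 3) in WT astrocytes and 7.91% ± 0.212 in KIN astrocytes, 9.25% ± 0.189 in WT and 8.17% ± 0.597 in KIN microglia, and 10.8% ± 1.57 in WT and 11.2% ± 0.466 in KIN neurons. Snord-named snoRNAs took 12.3% in WT astrocytes and 16.0% in WT neurons. All these shares are of library totals, and the order of the groups depends on that scaling. With TMM-scaled totals the members' share in WT neurons lay below that in WT microglia. In KIN microglia it then lay slightly above WT microglia. Single members ranged from 1.48 to 7356 CPM in mean level, with a median of 131 CPM: 28 exceeded 1000 CPM and 29 stayed under 10 CPM. Every fraction held at least 5 reads of 176 members in at least 1 of its libraries, and 143 members had 5 or more reads in all 18 libraries.

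Gm23344, from the intron of Rpl4, which encodes a protein of the large ribosomal subunit, had the highest mean level. It was counted at 6810, 5174 and 7265 CPM in WT astrocytes and at 5341, 5494 and 5399 CPM in KIN astrocytes. In microglia it stood at 6093, 4903 and 6361 CPM in WT and at 4271, 3486 and 3621 CPM in KIN. In neurons the levels were 21439, 8025 and 9882 CPM in WT and 7673, 10356 and 10807 CPM in KIN. The value of 21439 CPM is that of Neurons WT replicate 1, the shallowest library, in which the 8 highest members took 52.7% of the members' reads, against 33.3% to 44.3% in the other 17 libraries. Over all libraries those 8 members held 37.4% of the members' reads.

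Of the other high members, Gm26202 and Gm23301 had their highest WT mean in neurons, and Gm24134, Gm23130, Gm25091 and Gm25506 in microglia. Gm26202, from an intron of Rpl17, was at 3923, 3851 and 4044 CPM in WT astrocytes, at 5433, 5904 and 5986 CPM in WT microglia and at 9471, 7279 and 9048 CPM in WT neurons, with no overlap between fractions. Gm25506, from Tnpo2, which encodes a nuclear import receptor, ran the other way, at 3358, 3479 and 3347 CPM in WT astrocytes, 3711, 3136 and 3622 CPM in WT microglia and 1380, 1976 and 2489 CPM in WT neurons. All its WT neuron values lay below those of both other WT fractions, and it was called lower in neurons than in astrocytes (log2 fold change −1.01 ± 0.25 SE, adjusted p = 0.0206) and microglia (−1.02 ± 0.29, adjusted p = 0.0255, edgeR quasi-likelihood test with Benjamini-Hochberg adjustment). None of these members was called between the genotypes in any fraction.

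**Figure D1:**
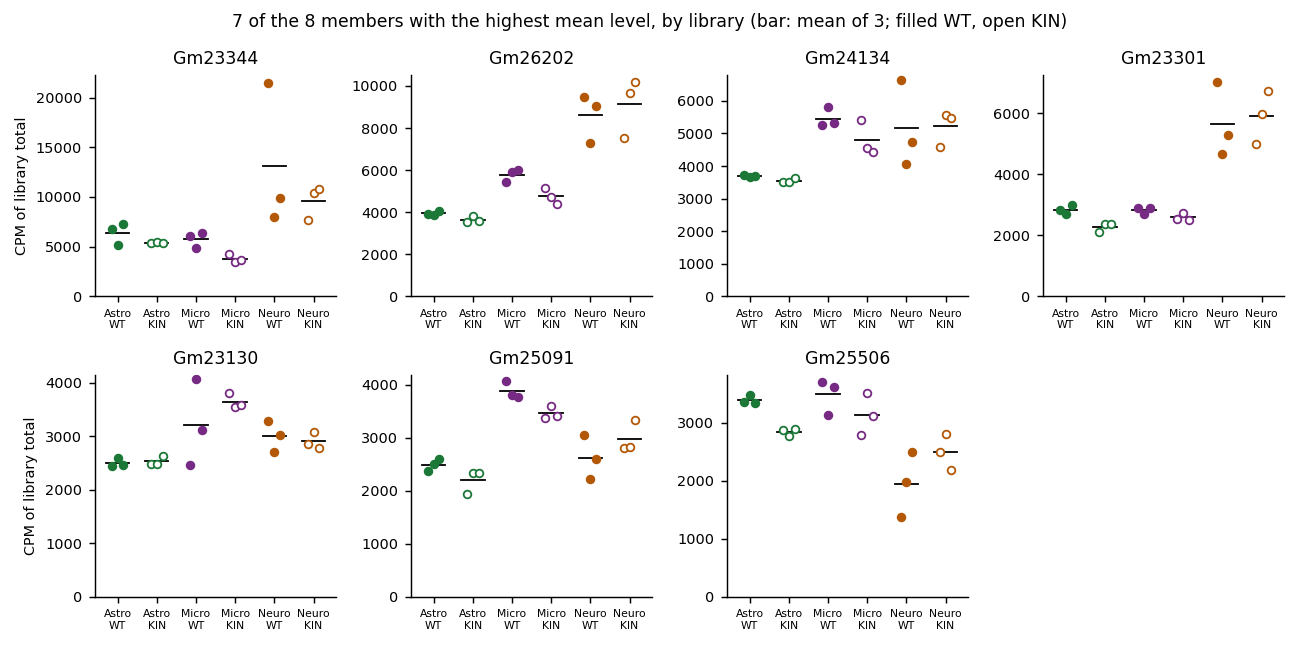
CPM in each of the 18 libraries for 7 of the 8 members with the highest mean level, grouped by fraction and genotype, with a bar at the mean of each group. Gm23344 reaches 21439 CPM in Neurons WT replicate 1, and Gm25506 is lowest in the WT neuron libraries.

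The comparison of KIN with WT asked, within each fraction, whether the expanded Atxn2 allele went with a change in these RNAs. A transcript was called where the edgeR quasi-likelihood test gave a Benjamini-Hochberg adjusted p of at most 0.05 over all transcripts tested and the absolute log2 fold change was at least 1. Values after ± are standard errors of the log2 fold change.

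**Figure D2:**
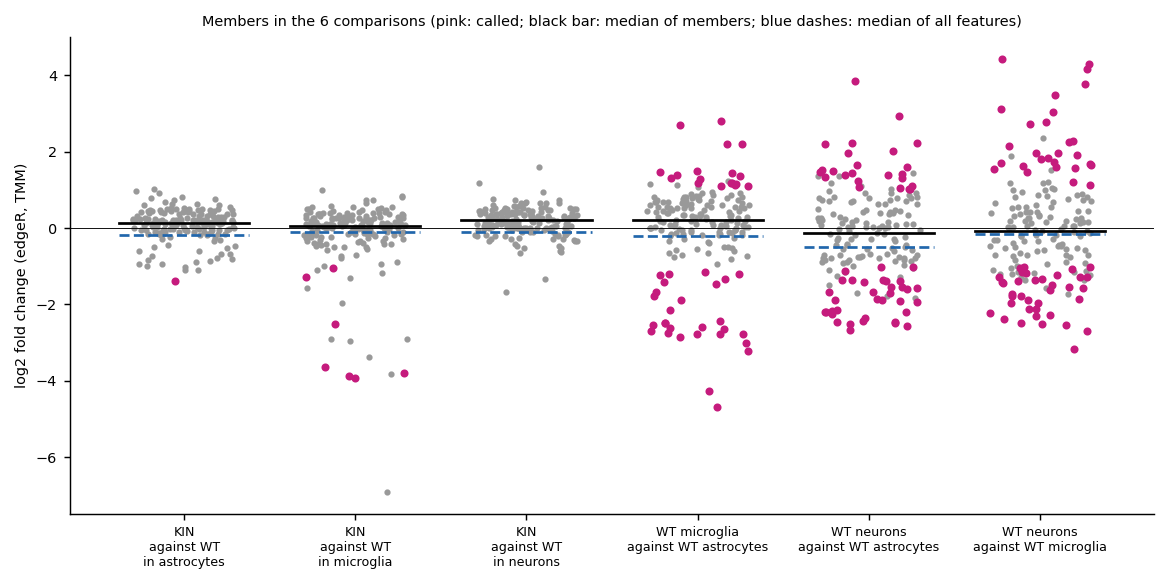
Log2 fold change of each member tested (edgeR, TMM-scaled) in the 3 genotype comparisons and the 3 comparisons of WT fractions, with called members in pink, a black bar at the members' median and blue dashes at the median of all transcripts tested. The genotype comparisons hold 1, 7 and 0 called members, and the lowest grey point in microglia is Gm23787, with 0 reads in KIN.

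In KIN astrocytes 1 of 177 tested members was called, against 8.18% of all 5694 transcripts (1.79% higher and 6.39% lower). It was Gm25852, in an intron of Frmd4b (chr6:97524399-97524528, minus strand), shown here with no capitals because neither set of box letters was found.
Gm25852: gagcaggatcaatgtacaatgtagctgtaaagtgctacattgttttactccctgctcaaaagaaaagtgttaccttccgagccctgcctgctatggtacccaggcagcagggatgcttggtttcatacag
Gm25852 was counted at 13.4, 11.8 and 14.0 CPM in WT astrocytes and at 5.23, 2.79 and 5.64 CPM in KIN astrocytes, with no overlap. It fell by 1.38 on the log2 scale (SE 0.32, adjusted p = 0.0304, edgeR). In microglia it was near 0 in both genotypes, and in neurons the genotypes overlapped, at 29.7 to 46.5 CPM in WT and 25.2 to 51.6 CPM in KIN. Its astrocyte call was lost in the fits without WT replicate 1 or 3 or without any 1 of the KIN libraries, where the adjusted p was 0.0828 to 0.110, without a filter on low counts (0.250) and in 1 fit of all 18 libraries (0.110).

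At an adjusted p of 0.05 with no limit on size, 13 members rose and 2 fell, by absolute log2 fold changes of 0.37 to 1.38. These are 7.34% and 1.13% of the members tested, against 4.88% and 6.83% of all transcripts, and at an unadjusted p under 0.05 the shares were 27.7% of the members and 34.3% of all. Gm22879, from Rpl7a, was among those that rose, from 357, 369 and 385 CPM in WT to 444, 502 and 488 CPM in KIN (0.50 ± 0.11, adjusted p = 0.0267). All 3 members of Eif4a2, the gene of a translation initiation helicase, had positive estimates of 0.42 to 0.51, with adjusted p of 0.0151 to 0.0809. The members' median was 0.13, and that of all transcripts was −0.19.

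That positive median depends on how libraries are scaled. With library totals in place of TMM factors, the median of all transcripts moved by −0.12 in astrocytes and by −0.22 in microglia, and that of the members to 0.00 and −0.17. Relative to all transcripts the members stood 0.32 higher in astrocytes under TMM and 0.31 higher under library totals. The calls over all transcripts split into 102 higher and 364 lower under TMM, into 56 and 419 under library totals and into 142 and 281 by DESeq2, and the members' calls into 0 and 1, 0 and 2, and 2 and 1. Without WT replicate 2, 10 members were called lower in KIN astrocytes, and without any other single library none was.

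In KIN microglia 7 of 176 tested members were called, all lower, a share of 3.98% against 4.35% of all 4940 transcripts, made up of 1.42% higher and 2.94% lower. Of these, 5 lie in Snhg14, a lncRNA of the imprinted region on chromosome 7 from whose introns snoRNAs are cut in tandem, and 2 in introns of Pabpc4 and Pawr. No member was called higher. The share of members called was near that of all transcripts.

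The called Snhg14 members are shown because 4 of them are near-identical copies. They are Gm26097 (chr7:59446653-59446745), Gm22584 (chr7:59363282-59363373), Gm26504 (chr7:59325736-59325829), Gm25157 (chr7:59353175-59353268) and Gm25088 (chr7:59125370-59125448), all on the minus strand, the first 4 in introns and Gm25088 in an exon of Snhg14, with C and D box letters in capitals.
Gm26097: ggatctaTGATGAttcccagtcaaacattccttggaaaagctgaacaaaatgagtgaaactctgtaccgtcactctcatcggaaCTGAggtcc
Gm22584: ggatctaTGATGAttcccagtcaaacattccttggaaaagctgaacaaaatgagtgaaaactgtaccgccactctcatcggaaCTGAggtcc
Gm26504: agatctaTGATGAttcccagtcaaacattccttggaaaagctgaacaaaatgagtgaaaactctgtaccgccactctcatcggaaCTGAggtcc
Gm25157: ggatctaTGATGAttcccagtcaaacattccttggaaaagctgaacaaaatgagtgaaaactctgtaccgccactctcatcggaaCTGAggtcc
Gm25088: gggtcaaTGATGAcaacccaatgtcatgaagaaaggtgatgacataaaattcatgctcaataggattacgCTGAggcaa
Gm25157 is 100% identical to Snord116l8 of the vM39 annotation, and the other 3 copies are 97.9% to 98.9% identical to Snord116l8 or Snord116l9. Snord116 copies are best known from the Prader-Willi syndrome region. Gm25088 belongs to a second Snhg14 family, with Gm25089, Gm25087 and Gm26467.

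Reads of these RNAs were few in microglia. Gm26097 was counted 33, 7 and 32 times in the WT libraries and 1, 1 and 2 times in the KIN libraries, and Gm22584 43, 7 and 54 times in WT and 3, 1 and 2 times in KIN. Gm26504 had 43, 8 and 28 reads in WT and 1, 3 and 1 in KIN, Gm25157 had 42, 6 and 40 in WT and 3, 2 and 1 in KIN, and Gm25088 had 26, 7 and 23 in WT and 1, 5 and 3 in KIN. Each of the 5 had its lowest WT value in replicate 2, and in each every WT count exceeded every KIN count. They fell by 3.93 ± 0.70 (Gm26097, adjusted p = 0.0248), 3.86 ± 0.79 (Gm22584, 0.0303), 3.79 ± 0.71 (Gm26504, 0.0262), 3.63 ± 0.78 (Gm25157, 0.0359) and 2.52 ± 0.60 (Gm25088, 0.0482) on the log2 scale.

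The uncalled Snhg14 members had estimates of the same sign. Gm25089 had 33, 12 and 36 reads in WT and 10, 7 and 7 in KIN (−1.57, adjusted p = 0.0944), Gm25087 11, 12 and 26 in WT and 6, 4 and 1 in KIN (−1.97, 0.107), and Gm26467 9, 5 and 20 in WT and 0, 2 and 2 in KIN (−2.90, 0.0607). Gm23254 was too low to test in microglia. With reads of near-identical copies summed, the 4 Snord116-like copies fell by 3.84 ± 0.62 (adjusted p = 0.0187) and the family of Gm25088 by 2.04 ± 0.41 (adjusted p = 0.0282).

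Summed over its 9 members, Snhg14 stood at 70.8, 19.0 and 70.9 CPM in WT microglia and at 9.21, 5.79 and 4.42 CPM in KIN microglia. The groups did not overlap, and the mean was 53.6 CPM in WT and 6.48 CPM in KIN, 8.27-fold higher in WT. Without WT replicate 2 the ratio was 10.9, and without WT replicate 1 or 3 it was 6.94. In WT astrocytes the sum was 439, 193 and 470 CPM and in KIN astrocytes 194, 166 and 254 CPM, which overlapped. In neurons it was 675, 488 and 700 CPM in WT and 560, 467 and 600 CPM in KIN, also overlapping. In all 3 fractions WT replicate 2 had the lowest WT value.

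Markers of neural cells moved with this sum in microglia. The 4 neuronal marker miRNAs summed to 168, 64.5 and 165 CPM in WT microglia and to 51.5, 60.7 and 58.2 CPM in KIN microglia, and the 2 arms of miR-9, a miRNA of the neural lineage, to 211, 82.3 and 245 CPM in WT and 59.1, 68.6 and 60.1 CPM in KIN. All 6 were detected in every microglia library. As for Snhg14, WT replicate 2 was the lowest WT library. In both marker sums it was near the KIN libraries, but its Snhg14 sum was 19.0 CPM against 4.42 to 9.21 CPM in KIN. Replicate 2 was the lowest WT library for the marker sums in microglia only. Replicate 2 was the highest WT library for both sums in astrocytes (neuronal miRNAs 3224 CPM, miR-9 9496 CPM) and in neurons (241 and 2265 CPM), where its Snhg14 sum was the lowest. Of the other marker lists, pericyte miRNAs were also lower in KIN, at 145 to 202 CPM in WT and 59.4 to 136 CPM in KIN, and red blood cell miRNAs were higher, at 17.3 to 22.2 CPM in WT and 28.6 to 131 CPM in KIN, both with no overlap. Oligodendrocyte miRNAs (31.1 to 33.5 CPM in WT, 28.6 to 43.3 CPM in KIN), endothelial miRNAs (215 to 265 and 118 to 236 CPM) and microglial miRNAs (2835 to 3389 and 3097 to 5914 CPM) overlapped. The part of these cells in the result was not tested. Since the libraries come from many cells, fewer cells of a type and less RNA per cell cannot be told apart.

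**Figure D3:**
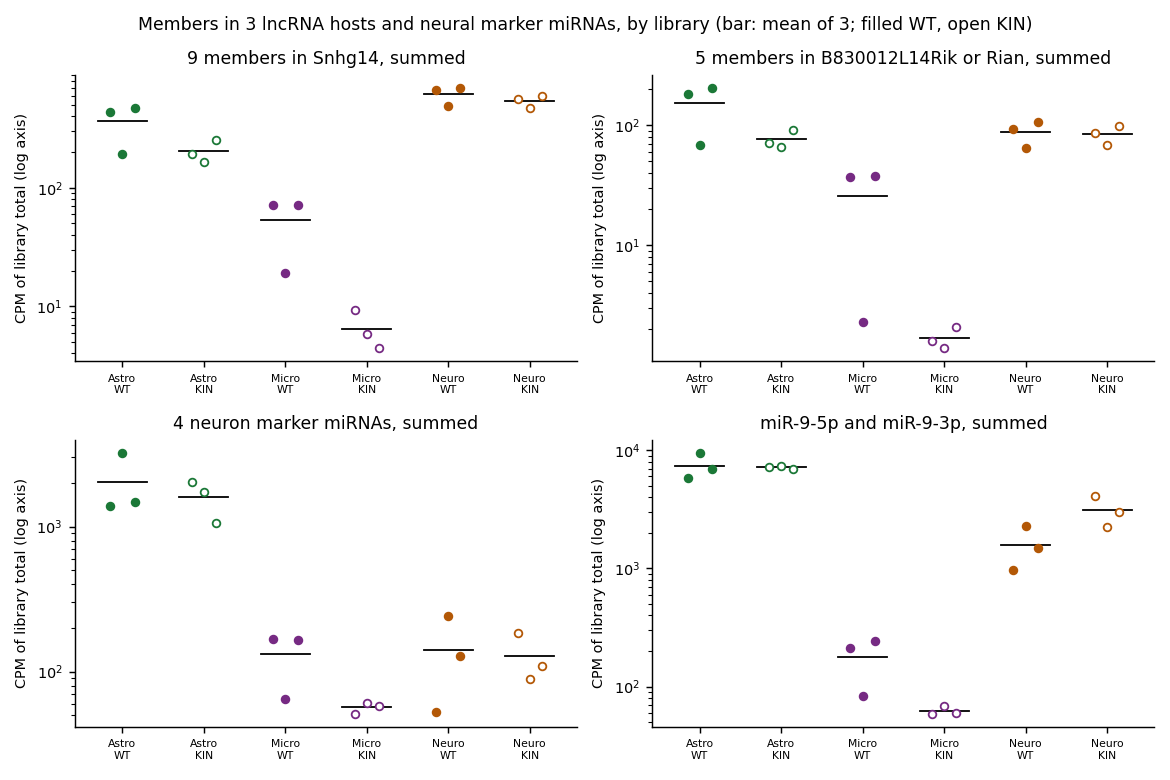
Summed CPM in each library of the Snhg14 members, of the members in B830012L14Rik and Rian, of the neuronal marker miRNAs and of miR-9, in the 6 groups. In microglia all 4 sums are lower in KIN than in WT replicates 1 and 3, with WT replicate 2 the lowest WT library in each.

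Members of a second imprinted region, on chromosome 12, had estimates of the same sign in microglia and none was called. They are Gm23736, Gm22981, Gm23787 and Gm25854 in introns of the lncRNA B830012L14Rik and Gm26922 in Rian, a lncRNA that hosts many box C/D snoRNAs. Summed, they stood at 36.9, 2.30 and 37.6 CPM in WT microglia and at 1.59, 1.39 and 2.09 CPM in KIN microglia, where WT replicate 2 was close to the KIN libraries. Gm25854 had 100 reads in WT and 6 in KIN over the 3 libraries (−3.82, adjusted p = 0.0625), Gm26922 had 86 and 10 (−2.91, 0.0586) and Gm23736 had 36 and 4 (−2.97, 0.100). Gm23787 had 48 reads in WT and 0 in KIN, at least 17.7-fold lower against a floor of 3 reads over the group (adjusted p = 0.0816), and Gm22981, with 4 and 0 reads, was not tested.

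The remaining called members in microglia carry ACA letters. Gm22154 lies in an intron of Pabpc4, which encodes a cytoplasmic poly(A)-binding protein (chr4:123186945-123187075, plus strand), and Gm23105 in an intron of Pawr, a pro-apoptotic regulator (chr10:108199526-108199659, plus strand), with ACA in capitals.
Gm22154: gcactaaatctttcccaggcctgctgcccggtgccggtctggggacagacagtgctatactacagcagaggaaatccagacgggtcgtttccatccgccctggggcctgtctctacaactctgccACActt
Gm23105: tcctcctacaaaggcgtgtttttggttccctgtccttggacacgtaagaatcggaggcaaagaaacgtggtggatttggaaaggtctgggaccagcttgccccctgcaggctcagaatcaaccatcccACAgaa
Gm22154 was at 397, 384 and 405 CPM in WT microglia and at 189, 97.1 and 124 CPM in KIN microglia (−1.28 ± 0.30, adjusted p = 0.0465). Gm23105 was at 231, 168 and 216 CPM in WT and at 81.3, 79.0 and 93.1 CPM in KIN (−1.04 ± 0.20, adjusted p = 0.0268). Neither pair of groups overlapped in microglia. In astrocytes Gm22154 was at 326, 235 and 299 CPM in WT and 285, 276 and 253 CPM in KIN, and its genotypes overlapped. Gm22154 is a near-identical copy of Gm25788, also in Pabpc4, and of Gm24620 in Kif13a, and the sum of the 3 was not called (−0.78 ± 0.24, adjusted p = 0.0867).

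The microglia calls rest on few libraries. No member was called without WT replicate 1 or 3 or without KIN replicate 2 or 3, where 0 to 12 of all transcripts were called. Without KIN replicate 1 there were 9 calls, 6 of them among the 7, and without WT replicate 2 there were 20, which included all 7. Directions held throughout: over these fits and the other settings Gm26097 ran from −4.33 to −3.65, with adjusted p from 1.50e-05 to 0.136, and Gm23105 from −1.28 to −0.94, with adjusted p from 0.000729 to 0.148. With the replicate number as a block 3 members were called, 2 of them among the 7. Under library totals the split of calls over all transcripts moved from 70 higher and 145 lower to 29 and 121, and the members' calls were 0 and 8.

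In KIN neurons 0 of 176 members were called, as were 0.0% of all 4535 transcripts, by edgeR and by DESeq2 alike. At an unadjusted p under 0.05 edgeR gave 2 members and 197 transcripts in all, and DESeq2 gave 2 members and 124 transcripts. The 2 members by edgeR were Gm25129, in Snhg11, a lncRNA of neurons, at 9.08, 5.62 and 4.58 CPM in WT and 1.28, 1.24 and 3.30 CPM in KIN (−1.69 ± 0.58), and Gm24453, in Snhg1, at 136, 214 and 221 CPM in WT and 361, 284 and 326 CPM in KIN (0.77 ± 0.29). Neither pair of groups overlapped, and both had an adjusted p of 0.917. The next smallest p was that of Gm26109, in Hspa9, whose genotypes overlapped, at 175, 259 and 342 CPM in WT and 439, 457 and 313 CPM in KIN (0.66 ± 0.32). The members' median was 0.20 and that of all transcripts −0.11, both TMM-scaled, and this shift was not tested.

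Members of the large host groups other than Snhg14 were not called between the genotypes in any fraction. The 7 members of Snhg1 summed to 3233 to 3511 CPM of library totals in WT and 2980 to 3284 CPM in KIN astrocytes. Their TMM-scaled median log2 fold changes were 0.14, 0.32 and 0.26 in astrocytes, microglia and neurons. Sum and median differ in scaling and in the weight of each member, so their directions need not match. Gas5, a growth-arrest lncRNA, had medians of 0.03, 0.18 and 0.17, and Taf1d 0.22, 0.32 and 0.36. The medians of Gas5 in both glial fractions turned to −0.11 and −0.04 under library totals. The 22 members in ribosomal protein genes had medians of 0.14, 0.12 and 0.14, of which the microglial one was −0.10 under library totals.

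The difference between the genotype effects was tested directly in 1 fit of all 18 libraries. This fit takes the libraries as independent, although the study took the fractions in sequence from single brains. Between neurons and microglia 5 members were called, all with a higher effect in neurons, against 1.23% of 8204 transcripts (1.15% higher and 0.0853% lower). They were Gm26504 (3.80 ± 0.72, adjusted p = 0.00815), Gm25157 (3.73 ± 0.73, 0.00949), Gm22584 (3.79 ± 0.77, 0.0117), Gm26097 (3.71 ± 0.76, 0.0121) and Gm23787 of B830012L14Rik (7.14 ± 1.46, 0.0127), the last with 0 reads in KIN microglia, so that its size is no bound. Without Microglia WT replicate 1 or Microglia KIN replicate 3 none was called, and without Microglia WT replicate 3 or Microglia KIN replicate 2 only 1 was.

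Between microglia and astrocytes no member was called by edgeR, with 19 (10.6%) at an unadjusted p under 0.05 against 7.24% of all transcripts, where 0.146% of transcripts were called (0.0122% higher and 0.134% lower). Leaving out Microglia WT replicate 2 gave 6 calls, Neurons WT replicate 1 or 2 gave 5, Astrocytes WT replicate 3 gave 3, and Astrocytes KIN replicate 2 or Microglia KIN replicate 1 gave 1. The smallest adjusted p was 0.0653, for Gm26504 (−3.23). Between neurons and astrocytes no member was called either, with 7 (3.91%) at an unadjusted p under 0.05 against 9.13% of all transcripts, of which 0.0% were called. DESeq2 was not run on these differences. The genotype effects on the Snhg14 members in microglia and astrocytes are therefore not shown to differ in the fit of all libraries. With the replicate number as a block 5 members were called. That block gives WT and KIN libraries of the same number, which come from different mice, a shared effect, so it does not model the brain either.

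The WT fractions were then compared with one another. These 3 comparisons share the WT libraries, so their values are not independent. WT microglia against WT astrocytes called 18 members higher and 28 lower of 179, a share of 25.7% against 31.5% of all transcripts (12.2% higher and 19.3% lower). WT neurons against WT astrocytes called 24 higher and 35 lower of 176, or 33.5% against 28.7% (10.2% and 18.5%), and WT neurons against WT microglia 28 higher and 37 lower of 177, or 36.7% against 28.0% (13.5% and 14.5%). Under library totals these splits became 13 and 28, 32 and 28, and 30 and 23, so that higher calls outnumbered lower ones in both comparisons with neurons, and the median of all transcripts moved by −0.10, 0.20 and 0.18. Calls of members between neurons and astrocytes fell from 59 to 28 and 27 without WT astrocyte replicates 1 and 3, and those between neurons and microglia from 65 to 32 and 38 without WT microglia replicates 1 and 3.

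Relative to all transcripts the members' median was 0.44, 0.37 and 0.06 higher in the 3 comparisons, and 0.43, 0.38 and 0.06 higher under library totals. At least 1 comparison called 101 members, 6 were called in all 3 and 78 in none. Of the 174 members tested in all 3 comparisons, 56.9% were called in at least 1 and 3.45% in all 3, against 47.7% and 3.66% of the 3987 transcripts tested in all 3. The highest WT mean was 2.36-fold the lowest in the median member, more than 4-fold in 45 members and less than 1.5-fold in 25. The highest mean was found in neurons for 72 members, in microglia for 62 and in astrocytes for 45. These means are CPM of library totals, without TMM factors. Under TMM the members' median was −0.13 for neurons against astrocytes and −0.09 for neurons against microglia. The lead of neurons may therefore depend on scaling, and the order under TMM was not counted.

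The medians of the box groups lay furthest apart in the comparisons with neurons. Against microglia, 23 of 69 ACA members were called lower in neurons and 5 higher, with a median of −1.0, whereas 8 of 53 C and D members were called lower and 13 higher, with a median of 0.54. Among these 13 are the 4 near-identical Snord116-like copies of Snhg14, whose counts are not independent of each other. Against astrocytes the medians were −0.72 for ACA, with 21 of 67 lower and 8 higher, and 0.30 for C and D, with 8 of 54 lower and 7 higher. The signs of these 4 medians held under library totals and by DESeq2. Of the 35 Snora-named snoRNAs tested, 12 were called lower in neurons than in microglia and none higher, with a median of −0.68. Of all transcripts 13.5% were called higher and 14.5% lower in neurons than in microglia, and 10.2% and 18.5% than in astrocytes. These counts describe the groups, and the difference between the groups was not tested.

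**Figure D4:**
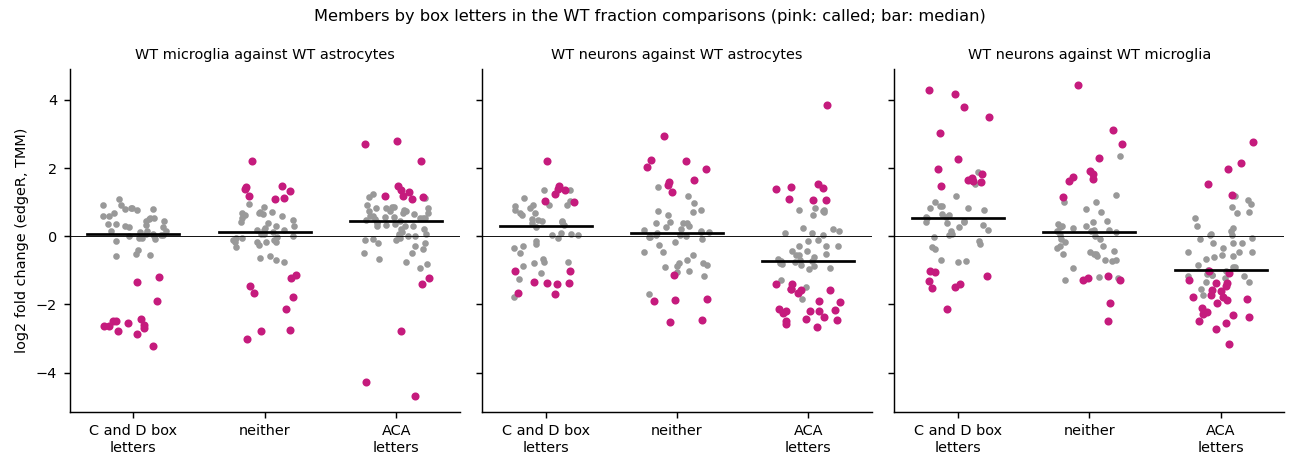
Log2 fold change of each member tested (edgeR, TMM-scaled) in the 3 comparisons of WT fractions, grouped by box letters, with called members in pink, others in grey and a bar at the median of each group. In neurons against microglia the ACA median is −1.0 and the C and D median 0.54.

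Gm25107, in an intron of the X-linked Lrch2, was the member with the widest range between WT fractions. It was counted at 308, 324 and 281 CPM in WT astrocytes, at 10.9, 7.77 and 14.5 CPM in WT microglia and at 37.2, 63.9 and 64.2 CPM in WT neurons. No fraction overlapped another, and it was called in all 3 comparisons, with −4.69 ± 0.27 in microglia and −2.67 ± 0.34 in neurons against astrocytes. Gm25188, in Sh3d19, was also high in astrocytes, at 22.3, 15.6 and 16.7 CPM, against 0.576 to 1.09 CPM in WT microglia (−4.27 ± 0.44) and 2.04 to 5.89 CPM in WT neurons (−2.48 ± 0.48). It has 4 near-identical copies elsewhere, and the sum of the 5 was not called between microglia and astrocytes (0.48 ± 0.24, adjusted p = 0.145).

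Of the 4 members called higher in WT microglia than in both other WT fractions, 3 carried ACA letters and 1 neither set. They are 2.26% of the members tested in both comparisons, against 7.39% of all transcripts. One of them, Gm26165, in an intron of Snx5, the gene of a sorting nexin, was at 1027, 877 and 963 CPM in WT microglia, at 174, 140 and 161 CPM in WT astrocytes and at 196, 335 and 408 CPM in WT neurons, 2.71 ± 0.19 above astrocytes. Gm25663, in Uchl5, a deubiquitinase of the proteasome, was at 14.4, 15.3 and 18.5 CPM in WT microglia and at 3.18, 4.52 and 3.34 CPM in WT astrocytes (2.21 ± 0.38), but was not called against neurons. In both cases microglia and astrocytes did not overlap.

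Gm22806, in Cks2, which encodes a cyclin-dependent kinase subunit, was lowest in astrocytes. It had 4.13, 3.77 and 3.34 CPM in WT astrocytes, 27.4, 23.9 and 21.3 CPM in WT microglia and 29.7, 74.1 and 84.4 CPM in WT neurons, 2.80 ± 0.36 and 3.85 ± 0.51 above astrocytes. Gm50451, in AI506816 and 98.6% identical to Snord93, was likewise higher in microglia (2.20 ± 0.42) and neurons (2.24 ± 0.68) than in astrocytes. Its Neurons WT replicate 1 value, 4.13 CPM, lay within the astrocyte range of 2.23 to 4.25 CPM. Its neuron call (adjusted p = 0.0403, edgeR) was lost without Neurons WT replicate 3 or without any 1 of the WT astrocyte libraries, where the adjusted p was 0.0643 to 0.117.

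Gm22879, in Rpl7a, rose most clearly toward neurons among the abundant members. It stood at 357, 369 and 385 CPM in WT astrocytes, at 928, 910 and 979 CPM in WT microglia and at 5331, 2218 and 2357 CPM in WT neurons, a difference of 2.93 ± 0.36 from astrocytes. Gm24837, in Ubap2, was at 120, 115 and 129 CPM in WT astrocytes, 61.3, 64.5 and 70.9 CPM in WT microglia and 741, 607 and 607 CPM in WT neurons (2.21 ± 0.26 against astrocytes). No fraction overlapped another in either case. They belong to the 13 members called higher in neurons than in both other fractions, 7.47% of those tested in both comparisons against 8.73% of all transcripts.

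The reverse pattern, lower in neurons than in both other fractions, was called for 23 members, 14 of them with ACA letters, or 13.2% of those tested in both comparisons against 7.85% of all transcripts. Gm24698, in Champ1 and 94.7% identical to Snora3, was at 134, 126 and 119 CPM in WT astrocytes, at 182, 197 and 195 CPM in WT microglia and at 11.6, 32.2 and 28.8 CPM in WT neurons (−2.57 ± 0.43 against astrocytes and −3.17 ± 0.46 against microglia). Gm25133, with no annotated host and 98.5% identical to Snora30, was at 524, 434 and 472 CPM in WT astrocytes, 606, 517 and 512 CPM in WT microglia and 51.2, 114 and 154 CPM in WT neurons. Gm26109, in Hspa9, which encodes the mitochondrial chaperone mortalin, was at 1273, 1296 and 1261 CPM in WT astrocytes, 486, 587 and 510 CPM in WT microglia and 175, 259 and 342 CPM in WT neurons. In these 3 members every WT neuron value lay below every other WT value.

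Lower calls against microglia were also made for Gm25053, in Tmem245 (−2.50 ± 0.54), and Gm23639, in the lncRNA Epb41l4aos (−2.71 ± 0.55). Gm25053 was at 64.2, 49.8 and 61.6 CPM in WT microglia and at 4.13, 10.7 and 19.6 CPM in WT neurons. Gm23639 was at 8.06, 9.79 and 8.73 CPM in WT microglia and at 1.65, 1.02 and 1.96 CPM in WT neurons, few reads in the shallower neuron libraries.

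Members lower in WT microglia than in both other fractions numbered 14, or 7.91% of those tested in both comparisons against 4.3% of all transcripts, and 7 of them lie in Snhg14. All 9 Snhg14 members were called lower in WT microglia than in WT astrocytes, with a median of −2.64, and 7 of the 8 tested were called higher in neurons than in microglia, with a median of 2.87. The largest estimates were those of Gm26467 against astrocytes (−3.21 ± 0.48), at 34.0, 18.6 and 42.2 CPM in WT astrocytes and 2.59, 1.44 and 5.45 CPM in WT microglia, and of Gm26097 between neurons and microglia (4.28 ± 0.58). No value of Gm26467 overlapped between these fractions. Between neurons and astrocytes the 2 Snhg14 families split: the sum of the Snord116-like copies was higher in neurons (1.20 ± 0.39, adjusted p = 0.0466) and that of the Gm25088 family was lower (−1.28 ± 0.36, adjusted p = 0.0295). The Snord116-like copies summed to 255, 98.0 and 273 CPM in WT astrocytes and to 609, 424 and 608 CPM in WT neurons, and the Gm25088 family to 177, 92.9 and 188 CPM in WT astrocytes and to 64.4, 61.8 and 89.7 CPM in WT neurons. Neither pair overlapped. The neuronal marker miRNAs, given above, were lower in the neuron-labelled libraries than in astrocytes.

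Gm25852, the member called in KIN astrocytes, was also among the most uneven between WT fractions, at 11.8 to 14.0 CPM in astrocytes, 0.864 to 2.45 CPM in microglia and 29.7 to 46.5 CPM in neurons. It was called in all 3 WT comparisons, with 4.44 ± 0.53 between neurons and microglia (adjusted p = 0.000546).

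**Figure D5:**
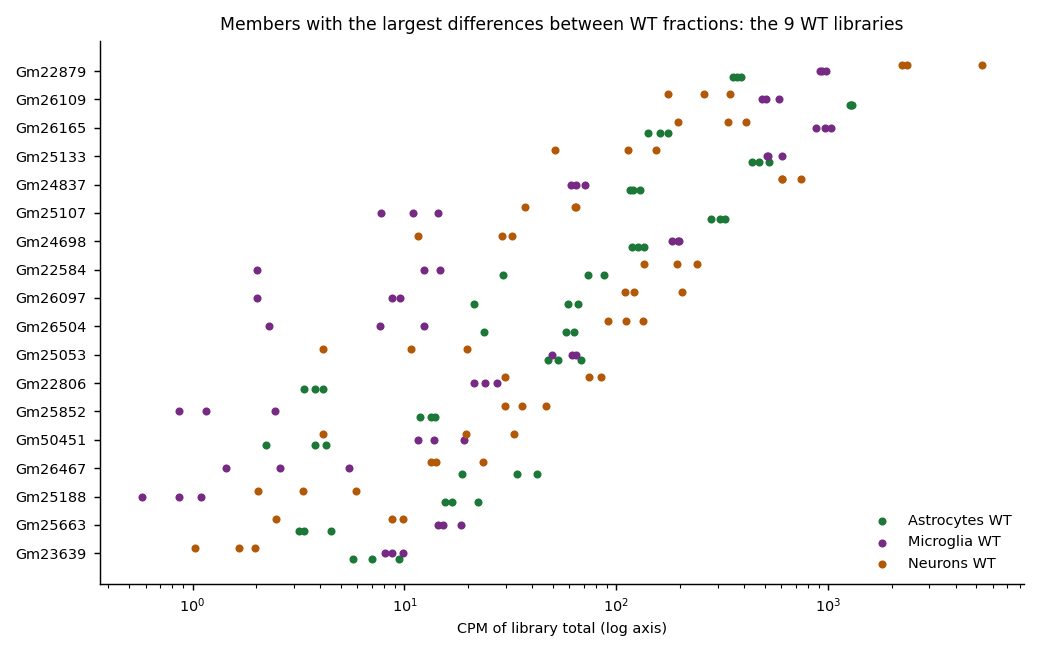
CPM (log axis) in the 9 WT libraries of the 18 members with the largest differences between WT fractions, 1 line per member and 1 point per library, coloured by fraction. Gm25107 runs from 7.77 CPM in a microglia library to 324 CPM in an astrocyte library, and the Neurons WT replicate 1 value of Gm50451 lies among the astrocyte values.

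The remaining families of at least 3 near-identical copies were compared by their sums. The 4 copies of Gm24095, which lie in Taf1d, Zfp808, Zfp934 and Gm11659, summed to 61.7, 53.5 and 50.1 CPM in WT astrocytes and to 123.3, 122 and 104 CPM in WT microglia (1.21 ± 0.26, adjusted p = 0.00442). The 3 copies of Gm23927, which have no annotated host, were higher in WT neurons than in WT astrocytes (1.40 ± 0.35, adjusted p = 0.0199), and those of Gm22192, in Prrc2b and Pip5k1a, were not called between any WT fractions. None of these sums was called between the genotypes.

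Other parts of the snoRNA pathway were read from lists of names. No Snord-named (75 or 76 tested) or Snora-named (35 tested) snoRNA was called between the genotypes in any fraction, and neither was any of the 13 tested transcripts of snoRNP protein genes. Of 18 tested Cajal body RNAs, which guide modification of spliceosomal RNAs, 1 was called lower in KIN microglia. Between WT fractions 4 of 14 snoRNP protein gene transcripts were called higher in neurons than in astrocytes and 3 of 13 higher than in microglia, where none was lower. In a small RNA library such transcripts are seen as short fragments.

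At the edge of the rule, the members with the fewest reads inside it were Gm23455, Gm22972 and Gm23123, with a sixth-highest count of 5, 6 and 6 reads and mean levels of 1.54, 1.48 and 1.5 CPM. The transcripts just outside, Gm22834, Gm24895 and Gm23202, each had a sixth-highest count of 4 reads and mean levels of 1.10, 1.02 and 0.919 CPM.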

How the data were processed

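Small RNA was sequenced from 18 libraries, 3 per fraction and genotype. The labels call them biological replicates, and the study describes mutant and WT pairs of mice of the same sex, with both sexes among the pairs. Sex was not used in the fits. The authors trimmed reads with Cutadapt 4.6, aligned them with Bowtie2 2.4.4 in local mode to miRNA, tRNA, piRNA, other non-coding RNA and coding transcripts in turn (mm39) and counted them with HTSeq 2.0.2 without strand. The library kit adds UMIs. Their collapsing is stated for the study's other (panRNA) libraries, and for the small RNA libraries it is not given in the sources used here. The deposited values used are raw counts per transcript, with 0 unnamed entries. A further 36 per-library columns of the same table were not used, nor were the authors' fold changes and p-values.

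Library totals, given at the start, limit precision most in neurons. Each comparison was fitted on its 6 libraries with edgeR 4.0.16 (R 4.3.3) by the quasi-likelihood test, with TMM factors and transcripts of at least 5 counts in at least 2 libraries. Differences between genotype effects came from 1 fit of all 18. DESeq2 1.42.0, library totals, no filter, summed copies, leaving out each library and a replicate block were alternatives. The fits were run on simulated counts with large changes in well-counted transcripts and a spread below that fitted to the data. That run does not bear on calls that rest on few reads or on uneven libraries. Intervals and floors cover counting error only.

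Named members were the 8 with the highest mean CPM, all called between genotypes up to 8 per direction (the 3 with the smallest p where none was called), the 4 called with the largest change each way between WT fractions, the 3 called with the smallest p between genotype effects, families of at least 3 copies, and those at the edge of the rule. The other members named, in Eif4a2, on chromosome 12, Gm22879 in astrocytes, Gm26097 and Gm23787 between effects, were chosen after their values were seen. Members, lists and tests were chosen with earlier results of these data known. The exact box letters searched on the transcript strand were TGATGA anywhere, CTGA within the last 12 bases, and ACA followed by 3 bases at the 3′ end. Hosts, coordinates and sequences come from GENCODE vM39 (GRCm39). Same-numbered libraries of WT neurons and WT astrocytes deviated together (r = 0.178, 0.372 and 0.165). The r was also positive for WT microglia with WT astrocytes (0.368, 0.389 and 0.0553) and with WT neurons (0.181, 0.301 and 0.0173). Some libraries with different numbers were as close, such as WT neuron replicate 3 and WT astrocyte replicate 1 (0.211), so the pairing is not certain. Of the 8 highest members, 1 is not reported here singly.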

Additional observations from a re-analysis of the deposited data

Results flagged for a closer look

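The genotype effect differed between neurons and microglia, by the interaction test in edgeR, for 5 members. On the log2 scale the effect in neurons minus that in microglia was 3.80 for Gm26504, 3.73 for Gm25157, 3.79 for Gm22584 and 3.71 for Gm26097, the 4 near-identical Snord116-like copies of Snhg14, which share reads and are not independent of each other. For Gm23787 of B830012L14Rik it was 7.14, a value set by 0 reads in the 3 KIN microglia libraries. Neuronal marker miRNAs and miR-9 were lower in KIN than in WT microglia, as given in the report, and their part in these differences was not tested.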

How the results depend on the processing

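Directions of the members named, fitted singly, did not reverse under the settings tried, but between WT microglia and astrocytes Gm25188 went from −4.27 to 0.48 for the sum with its 4 near-identical copies. The number of members called lower or higher in KIN astrocytes was 2 under library totals, 0 in 1 fit of all 18 libraries and 3 by DESeq2, and 0 to 10 when 1 library was left out. In KIN microglia it was 14 without a filter, 13 in the fit of 18, 3 with a replicate block, 3 with near-identical copies summed, and 0 to 20 with 1 library left out. Over all transcripts, calls in astrocytes were 159 in the fit of 18 and 41 to 1527 with 1 library left out. In microglia they were 426 without a filter, 334 in the fit of 18, 49 with the block, 379 by DESeq2 and 0 to 940 with 1 library left out. In neurons they were 75 without a filter and 0 to 52, with 0 to 0 members. Between WT fractions, 1 library left out gave 32 to 53 members of 1437 to 2134 transcripts (microglia against astrocytes), 27 to 67 of 911 to 1940 (neurons against astrocytes, with 2674 transcripts in the fit of 18) and 32 to 68 of 867 to 1683 (neurons against microglia). The difference of effects between microglia and astrocytes had 2 members without a filter, 5 with the block and 0 to 6 with 1 library left out, and that between neurons and microglia 0 to 9. The cause was not tested.

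With TMM-scaled totals the members' share of the library was 8.86% in KIN astrocytes, 9.84% and 10.0% in WT and KIN microglia, and 8.50% and 9.72% in WT and KIN neurons. Unlike under library totals, WT neurons then lay below WT microglia, and KIN microglia did not lie below WT microglia. Under library totals with 1 library left out the share was 8.21% to 8.46% and 7.82% to 8.03% in WT and KIN astrocytes. It was 9.15% to 9.34% and 7.83% to 8.39% in microglia, and 10.1% to 11.6% and 11.0% to 11.4% in neurons.

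Same-numbered libraries had positive r in all 3 comparisons of WT fractions. For WT neurons against WT astrocytes the block gave 65 members and 1974 transcripts and changed no other call named. It gave 47 members for WT microglia against WT astrocytes and 75 for WT neurons against WT microglia. In the genotype comparisons of microglia and neurons same-numbered libraries did not deviate together in all 3 pairs (r from −0.307 to 0.221). A call lost under the block there says little. In astrocytes r was 0.0790, 0.0578 and 0.133, and the 1 member called was kept under the block.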
